A study of Danio rerio with 27 samples.

Results

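Intraflagellar transport genes, Bardet-Biedl syndrome (BBS) genes and related genes of the cilium were described across 9 tissues of the adult zebrafish. The members were all rows whose gene symbol begins with ift or bbs and a digit, or with ttc, tctn or rpgr, and the rule found 61 of the 32524 genes in the files. The rule used names only, but earlier results of these data were known when the members were chosen. For the text they were sorted by role into 13 genes of the IFT-B complex, 3 of the IFT-A complex, 9 BBS genes, 6 transition zone genes, 5 ttc genes with a known link to cilia or sperm flagella, and 25 other ttc genes. The letters ttc stand for tetratricopeptide repeat domain, a protein-binding fold, so the other ttc genes share a fold and a prefix and not a pathway. The first 36 genes are called ciliary members here.

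Cilia and flagella are built at their tips, and motor proteins carry trains of intraflagellar transport (IFT) particles along the microtubules between base and tip. IFT-B particles travel outwards with kinesin, IFT-A particles serve the return with dynein, and the BBSome, an assembly of BBS proteins, rides on these trains and moves membrane proteins out of the cilium. The transition zone at the base acts as a gate. Sperm flagella of the testis, motile cilia of the ependyma lining the brain ventricles, and the primary cilia that many other cells carry all use this machinery.

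All fish were wild-type TLAB animals, a cross of the AB and TL laboratory stocks, raised under standard conditions with no treatment. Poly(A) RNA of testis, brain, spleen, heart, muscle, skin, tail, intestine and liver was sequenced in strand-specific libraries, with 3 replicates for each tissue and 27 libraries in all. No source says whether replicates came from separate fish, so p-values measure only the spread between these libraries. Levels are given as TPM, a transcript abundance scaled for length and for the library total.

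The libraries held 5100481 to 14151312 estimated counts, except testis replicate 3 with 91119844. Most tissues carried high levels of their own markers, for example 18029 to 21120 TPM of the heart myosin gene myl7 in heart and 616 to 714 TPM of the germ cell gene ddx4 in testis. The libraries labelled skin went against their label. They held 13206 to 15990 TPM of the muscle creatine kinase gene ckma and 1797 to 3827 TPM of the keratin gene krt5, whereas those labelled muscle held 14197 to 18495 TPM of ckma and 5376 to 9280 TPM of krt5. Intestine libraries also held 3707 to 21055 TPM of the liver gene fabp10a. Muscle replicate 2 held 3.67 TPM of ddx4 and 11.3 TPM of tekt1, a gene of motile axonemes, against at most 1.33 TPM of ddx4 and 3.13 TPM of tekt1 in any other library outside testis.

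The ciliary members were highest in testis, and brain came next for most of them, in TPM as deposited. Every testis library was above every other library for 34 of the 36 ciliary members and for 8 of the 25 other ttc genes, where 26.3% of all 25245 genes tested behaved in this way. The exceptions among the ciliary members were bbs5 and rpgra. Outside testis, brain had the highest mean level for 31 of the 36 ciliary members, and also for 18 of the 25 other ttc genes. No share of all genes was counted for this measure. Deposited TPM ran high in brain for many genes, and with it 48.2% of all genes were called higher in brain in the tests below. After the rescaling used there, brain was not highest for all of the 31. For example, ift74 and ift172 had log2 fold changes of 1.42 and 1.28 in spleen but 0.95 and 0.65 in brain. The summed level of the 13 IFT-B genes was 1351 to 1662 TPM in the testis libraries and 206 to 228 TPM in those of brain. It was 70.7 to 125 TPM in spleen, 34.1 to 67.4 in muscle, 44.6 to 48.0 in heart, 34.8 to 51.9 in tail, 27.7 to 36 in skin, 14.1 to 21.4 in intestine and 6.93 to 13.7 in liver. Muscle, heart and tail overlapped one another in this order, and skin overlapped muscle and tail. In such bulk samples fewer ciliated cells and less of these RNAs per cell cannot be told apart.

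**Figure D1:**
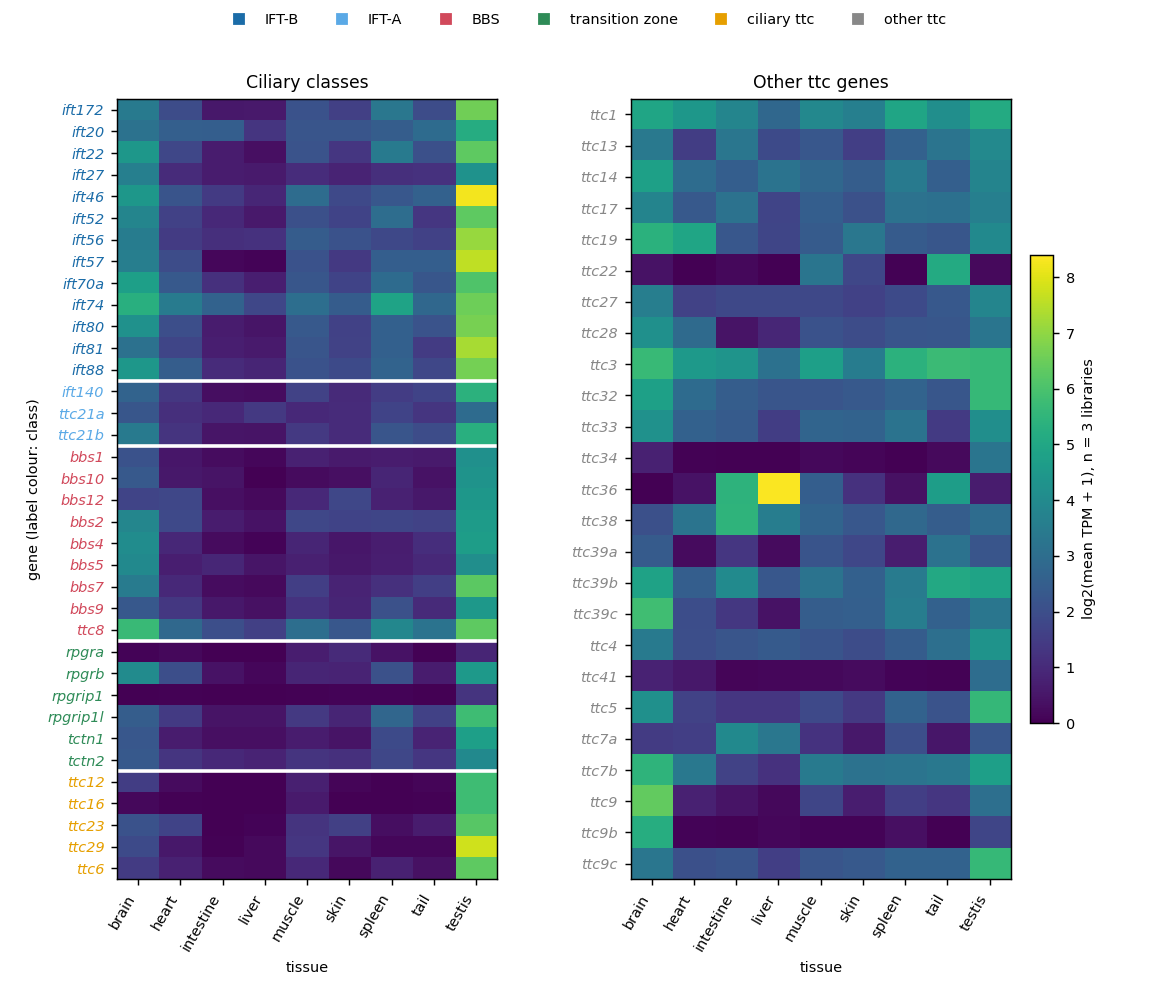
Level of each of the 61 members in each tissue, as log2 of the mean TPM of 3 libraries plus 1. Genes are rows, tissues are columns, label colours give the class, and the testis column is the brightest for nearly all ciliary members, while ttc36 peaked in liver and ttc9, ttc9b and ttc39c in brain.

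For the tests, TPM values were rescaled so that the typical gene had the same level in every library, and limma was fitted to log2(TPM + 1) with a mean for each tissue. A gene was called at an adjusted p (Benjamini-Hochberg over all genes tested) under 0.05 together with a log2 fold change of 1 or more in either direction. On this scale the changes of genes with low TPM come out too small. Of the 61 members, 60 passed the filter on low values, and rpgra did not. When testis was set against the average of the other 8 tissues, 38 of the 60 tested members were higher, where 22.4% of all genes were, and 3 were lower, where 16.4% of all genes were. The median log2 fold change was 2.01 over the members and -0.01 over all genes. With the TPM as deposited, 51 members were called higher, but so were 46.9% of all genes. The 4 members rpgrip1, ttc16, ttc34 and ttc41 reached 1 TPM in at most 1 library outside testis. They passed the filter only through testis, where they had to differ, and without them 35 of 56 were higher.

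All 13 IFT-B genes rose in testis, where the median log2 fold change was 3.32 with a range from 1.58 for ift20 to 4.75 for ift57. The highest level belonged to ift46, a subunit of the IFT-B core, with 366, 290 and 265 TPM in the testis libraries and 23.2, 18.5 and 21.2 TPM in those of brain. No library of another tissue passed 9.76 TPM, the value of muscle replicate 2, so testis stood apart from brain and brain from the rest. Its log2 fold change in testis was 4.73 (SE 0.22, limma adjusted p = 1.8e-14).

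The gene ift57, a peripheral subunit of IFT-B, had 218, 182 and 172 TPM in testis, 9.20, 14.1 and 10.2 TPM in brain and at most 7.37 TPM elsewhere. Liver replicates 1 and 2 listed it at 0 and replicate 3 at 0.198 TPM. Intestine was also low, with 0.0692 to 0.208 TPM. The testis log2 fold change of ift57 was 4.75 (SE 0.22, limma adjusted p = 1e-14).

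The pair ift81 and ift74 encodes a dimer that binds tubulin, the main cargo of a growing cilium. In testis ift81 had 168, 144 and 156 TPM and ift74 had 98.2, 88.9 and 90.9 TPM. In brain the order was turned, with 6.68, 7.64 and 8.74 TPM of ift81 against 36.7, 38.8 and 40.8 TPM of ift74. The ratio of ift81 to ift74 within a library, which no scaling of libraries can change, was 1.68 ± 0.06 (SD, n = 3) in testis and 0.198 ± 0.016 in brain. It did not pass 0.738 in any library outside testis, the value of muscle replicate 2. This pair was chosen after its values were seen, and the ratio was not tested.

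Among the other IFT-B genes, ift88, a core subunit whose loss blocks cilia in many animals, had 108, 89.7 and 99.8 TPM in testis and 21.6, 21.4 and 19.2 TPM in brain. The largest subunit, ift172, had 98.3, 79.7 and 105 TPM in testis and 9.89, 10.7 and 9.73 TPM in brain. Both genes were separated between the tissues, and they rose in testis by log2 fold changes of 3.32 and 3.50 in the limma fit. The smallest rise in this fit was that of ift20, whose protein also sits at the Golgi, with 42.8, 34.5 and 30.2 TPM in testis, 8.17, 7.13 and 8.38 TPM in brain and 0.767 to 8.69 TPM elsewhere. Brain and tail overlapped for ift20, unlike brain and tail for ift46, ift57 and ift88. The remaining IFT-B genes ift22, ift52, ift56, ift70a and ift80 rose in testis by log2 fold changes of 2.69 to 4.16.

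The small GTPase gene ift27, whose product helps the BBSome leave cilia, had 21.0, 19.6 and 14.4 TPM in testis and 11.2, 10.8 and 12.3 TPM in brain. Its highest library elsewhere had 1.61 TPM. Testis and brain were thus close to each other and far above the other tissues. Within IFT-B the ratio of the testis mean to the brain mean ran from 1.60 for ift27 to 20.3 for ift81, with a median of 5.55.

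**Figure D2:**
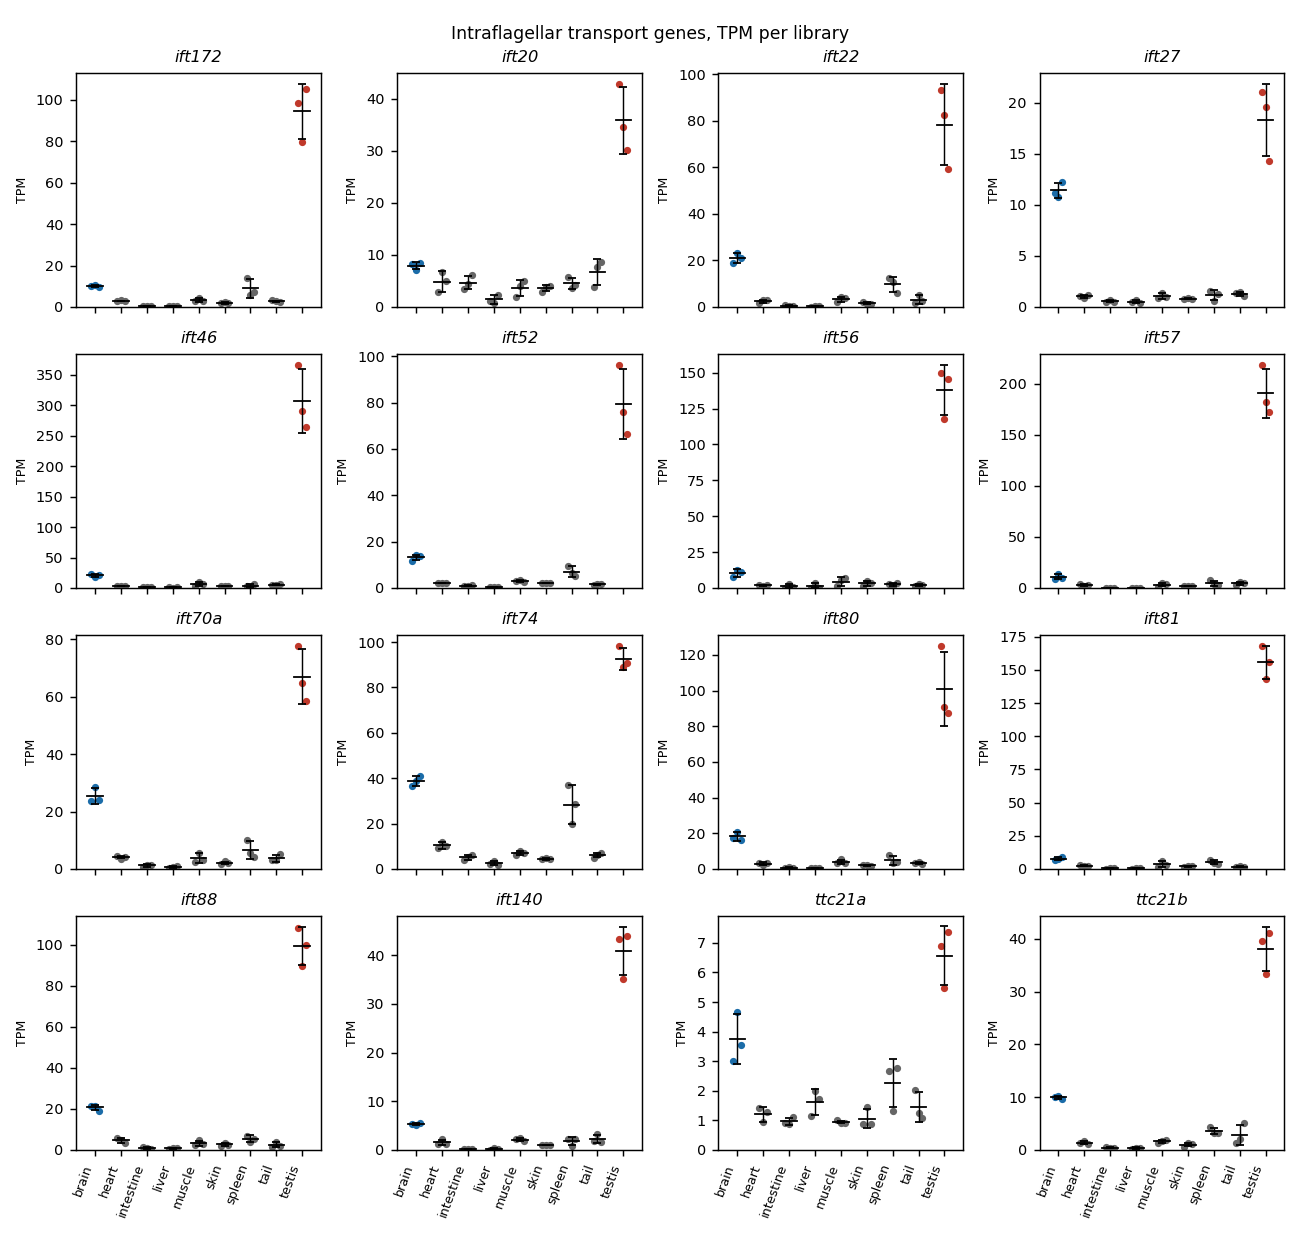
TPM of the 13 IFT-B and 3 IFT-A genes in each of the 27 libraries, with testis in red, brain in blue and the other tissues in grey. Black lines are means and bars are SD (n = 3, lower ends stopped at 0), and each panel has its own linear axis from 0. The testis points lie above all others in all 16 panels, and spleen stands out for ift74.

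The IFT-A gene ift140 had 43.4, 35.1 and 43.9 TPM in testis and 5.40, 5.21 and 5.55 TPM in brain. The genes ttc21b and ttc21a are paralogs, and the product of ttc21b is a subunit of the complex. In testis ttc21b had 39.7, 33.3 and 41.2 TPM and ttc21a 6.91, 5.46 and 7.35 TPM. Testis exceeded every other library for both, but ttc21a missed the fold threshold with a log2 fold change of 0.54 (SE 0.11, limma adjusted p = 0.00024), while ift140 and ttc21b rose by 3.0 and 2.68.

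The ratio of ttc21b to ttc21a changed with the tissue. It was 5.60 to 6.10 in the testis libraries and 2.17 to 3.36 in brain, and it fell below 1 in all libraries of intestine (0.344 to 0.534) and liver (0.188 to 0.259). Some libraries of heart (0.866 to 1.89), skin (0.708 to 1.36) and tail (0.690 to 4.73) were below 1 as well, and tail spanned the brain range. The intestine libraries were those that held fabp10a, and its part in their ratios was not tested. In liver ttc21a was higher than in the other tissues without testis, by a log2 fold change of 1.27 (SE 0.11, limma adjusted p = 3.3e-09), but this call needed the rescaling, since with TPM as deposited the value was 0.05 (adjusted p = 0.76). Whether reads shared by such paralogs were split correctly was not tested.

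All 9 BBS genes rose in testis, where their median log2 fold change was 2.35. The BBSome gene bbs7 had 83.9, 71.2 and 75.0 TPM in testis, 9.98, 11.6 and 9.49 TPM in brain and at most 2.84 TPM elsewhere. Its log2 fold change of 3.93 (SE 0.15, limma adjusted p = 3.5e-16) was the largest among the BBS genes on the log2(TPM + 1) scale, whereas edgeR gave 4.37 for bbs7 and 5.31 for bbs10. Among these 9 genes the highest value in any library was that of ttc8, also a BBSome subunit, in testis replicate 1. This gene had 92.8, 69 and 71.9 TPM in testis and 43.4, 51.8 and 58.3 TPM in brain. In testis replicates 2 and 3 bbs7 was above ttc8. In spleen ttc8 had 18.9, 6.19 and 16.1 TPM, and the other tissues stayed at or below 8.78 TPM.

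For bbs5 and bbs4, testis and brain were close. The libraries of bbs5 had 18.4, 16.7 and 14.8 TPM in testis and 14.0, 14.8 and 15.4 TPM in brain, so the groups overlapped, and every library elsewhere was at or below 1.22 TPM. Those of bbs4 had 30.0, 21.6 and 22 TPM in testis and 16.3, 15.4 and 16.7 TPM in brain, without overlap, against at most 1.58 TPM elsewhere. The genes bbs10 and bbs12 encode chaperonin-like proteins needed to assemble the BBSome. In testis bbs10 had 21.6, 15.0 and 20.8 TPM and bbs12 had 25.7, 16.9 and 19.9 TPM. In brain bbs10 had 3.72, 3.39 and 5.03 TPM and stood above all other tissues, whereas bbs12 had 2.18, 3.19 and 1.60 TPM and overlapped heart and skin. Skin bbs12 was called higher than the other tissues without testis (log2 fold change 1.04, SE 0.22, limma adjusted p = 0.00046), but the 3 libraries ran from 0.750 to 4.60 TPM and the call was lost without skin replicate 2 (0.67), with TPM as deposited (0.73) and after quantile normalization (0.90). These are the skin libraries with 13206 to 15990 TPM of ckma, whose part was not tested.

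Of the transition zone genes tested, rpgrip1l, tctn1, tctn2 and rpgrb rose in testis. The gene rpgrip1l, a scaffold of the zone, had 55.8, 45.5 and 61.2 TPM in testis and 4.24, 5.20 and 4.31 TPM in brain, with a testis log2 fold change of 3.24 (SE 0.13, limma adjusted p = 1.5e-15). Spleen rpgrip1l reached 9.16, 3.50 and 4.71 TPM and overlapped brain. The tectonic gene tctn1 had 28.8, 24.7 and 23.5 TPM in testis and 3.55, 3.70 and 4.39 TPM in brain, and tctn2 had 16.8, 12.9 and 15.2 TPM and 3.79, 4.73 and 3.86 TPM.

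The paralogs rpgra and rpgrb, named for a human retinitis pigmentosa gene, differed in level and pattern. Brain had 14.9, 17.2 and 14.8 TPM of rpgrb and testis had 27.5, 18.7 and 21.1 TPM. In contrast, rpgra stayed at or below 1.44 TPM in all 27 libraries and was highest in a skin library. The gene rpgrip1, which serves the connecting cilium of photoreceptors in mammals, had 1.27, 1.43 and 1.48 TPM in testis and at most 0.0982 TPM elsewhere. It missed the fold threshold on the log2(TPM + 1) scale with a value of 0.65, although its libraries did not overlap.

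The 5 ttc genes linked to cilia had the largest median ratio of testis to brain of any class. They were picked for a known role in motile cilia or sperm flagella, with earlier results of these data known. Their rank therefore gives no independent support to that role. The sperm flagellum gene ttc29 had 264, 193 and 202 TPM in testis and 3.21, 2.22 and 2.56 TPM in brain, with a log2 fold change of 6.07 (SE 0.23, limma adjusted p = 2.9e-16), the largest among the members on this scale. With edgeR ttc29 had 8.12 and ttc16 had 9.64. The dynein arm assembly gene ttc12 had 61.5, 45.2 and 54.9 TPM in testis and 1.97, 2.25 and 1.37 TPM in brain. The gene ttc16 had 71.8, 43.7 and 47.9 TPM in testis and 0.272, 0.114 and 0 TPM in brain. The genes ttc6 and ttc23 followed the same order, with 60.3 to 87.8 and 60.4 to 85.6 TPM in testis and 1.04 to 2.66 and 2.69 to 3.79 TPM in brain. The ratio of testis to brain means ran from 22.1 to 423 in this class, with a median of 45.4, and the lowest log2 fold change in testis was 4.19. The ratio of 423 and the edgeR value of 9.64 belong to ttc16. This gene passed the filter only through testis, where it had to differ, and had 3 counts or fewer in 23 of the 27 libraries.

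Outside testis and brain, the highest library for all of these 5 genes was muscle replicate 2. It had 2.93 TPM of ttc29, 1.63 of ttc12, 1.45 of ttc16, 2.82 of ttc23 and 2.24 of ttc6, which was 1.33% to 3.81% of the testis means. The 4 markers listed for testis germ cells, ddx4, sycp3, piwil1 and tekt1, were at 0.545% to 1.97% of their testis means in this library. The lowest was ddx4. The highest was tekt1, the gene of motile axonemes, with 11.3 TPM against a testis mean of 575 TPM. The part of germ cells in these muscle values was not tested. In brain these 4 markers were at or below 0.469% of the testis means, the value of tekt1, and the ciliary ttc genes reached 5.12%. Of the 3 genes of motile ciliated cells found, foxj1b had 4.90 to 7.59 TPM in brain and 38.6 to 50.4 TPM in testis. It had 1.76 to 5.19 TPM in skin, which overlapped brain. In brain gmnc had 1.06 to 2.30 TPM and mcidas 0 to 0.637 TPM, which overlapped the 0.316 to 0.486 TPM of mcidas in spleen. The source of the brain values of the ciliary ttc genes was not tested.

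When brain was set against the average of the 7 other tissues without testis, 23 of the 60 tested members were higher, where 21.1% of all genes were, and 4 were lower, where 17.7% of all genes were. The median log2 fold change was 0.65 over the members and -0.01 over all genes. The count of higher members depended on scale, since with the TPM as deposited 49 were called, beside 48.2% of all genes. Libraries were also compared without a model, again in TPM as deposited. Every brain library was above every library of the 7 other tissues for 22 of the 36 ciliary members. This held for 13 of the 25 other ttc genes, beside 35.4% of all genes.

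By class, 8 of 13 IFT-B genes were higher in brain, 1 of 3 IFT-A genes, 6 of 9 BBS genes, 1 of 5 tested transition zone genes and 7 of 25 other ttc genes. With rescaled TPM and a pseudocount of 1, limma called 0 of the 5 ciliary ttc genes, with log2 fold changes of -0.01 to 0.71. Of these, ttc12, ttc23 and ttc29 had an adjusted and an unadjusted p under 0.05, and those 3 were called with TPM as deposited, with a pseudocount of 0.1 and by edgeR, and DESeq2 also called ttc6. The highest among ciliary members in the limma fit were bbs4 with a log2 fold change of 2.42 (SE 0.16, limma adjusted p = 6.4e-12) and bbs5 with 2.11 (SE 0.18, limma adjusted p = 4.6e-10). The gene rpgrb followed with 1.96 (SE 0.12, limma adjusted p = 2e-12), and ttc8 had 1.67, ift22 1.65 and ift70a 1.60. This order depended on the fit, since edgeR gave 4.01 for bbs4, 3.71 for ttc12, 3.15 for bbs5, 2.98 for bbs10 and 2.90 for rpgrb. Among the IFT and BBS genes, for ift20, ift56, ift81, ttc21a, bbs9 and bbs12 no difference of brain passed the adjusted p threshold in the limma fit on rescaled TPM. With edgeR ift56 had 1.49 (adjusted p = 1.3e-05) and ift81 had 0.61 (adjusted p = 0.045). With TPM as deposited all of these genes passed the adjusted p threshold.

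**Figure D3:**
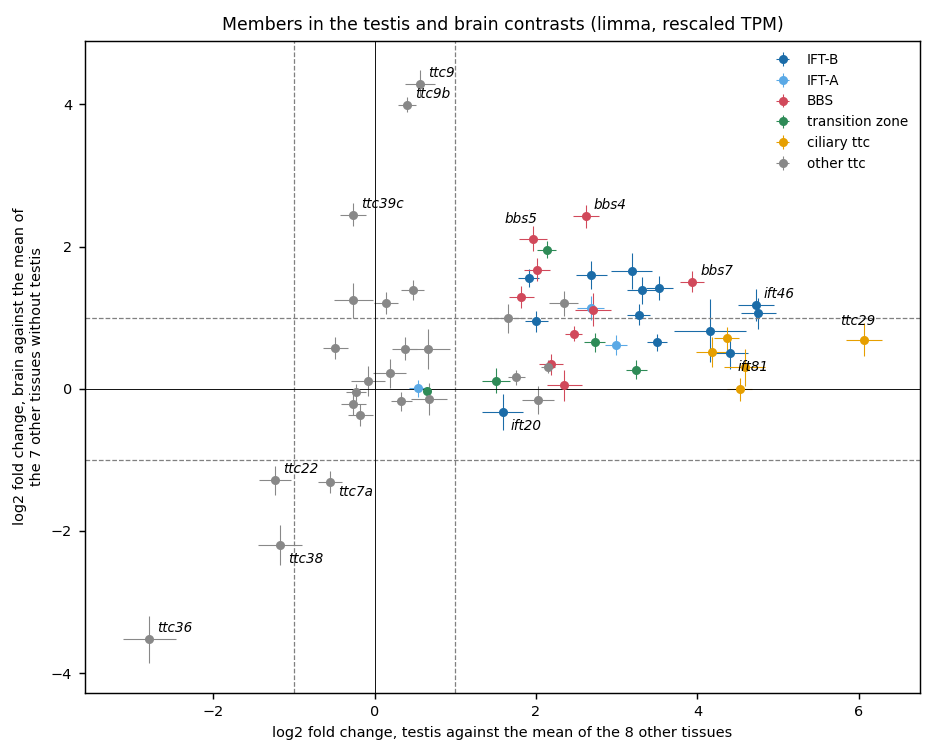
Log2 fold change of each tested member in testis (x axis, against the average of the other 8 tissues) and in brain (y axis, against the average of 7 without testis). Points are limma estimates with SE bars, colours give the class and dashed lines mark 1 and -1. The ciliary ttc genes lie far right with brain values under 1, bbs4 and bbs5 lie higher, and ttc9 and ttc9b lie highest on the brain axis with testis values under 1.

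Testis and brain were then compared with each other, a contrast added after the values were seen. Their libraries had similar scaling factors, 2.05 to 2.40 and 2.16 to 2.28. In TPM as deposited, every testis library was above every brain library for 35 of the 36 ciliary members, beside 42.9% of all genes. In the limma fit 31 of the 60 tested members were higher in testis, where 24.3% of all genes were, and 4 were lower, where 21.8% of all genes were. With the TPM as deposited the counts were 32 and 5, beside 29.5% and 23.7% of all genes. The median log2 difference was 1.23 over the members and 0.11 over all genes. By class, 12 of 13 IFT-B genes were higher in testis, 2 of 3 IFT-A genes, 5 of 9 BBS genes, 3 of 5 tested transition zone genes, 5 of 5 ciliary ttc genes and 4 of 25 other ttc genes.

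The 8 tested ciliary members that were not called between testis and brain were ift27, ttc21a, bbs2, bbs4, bbs5, ttc8, rpgrb and rpgrip1. Of these, rpgrip1 (0.68) was called higher in testis with TPM as deposited (1.24), with a pseudocount of 0.1, with edgeR and with DESeq2, but it is a gene that passed the filter only through testis. Among them the BBSome subunits had log2 differences of 0.68 (SE 0.21) for bbs2, 0.55 (SE 0.21) for ttc8, 0.50 (SE 0.21) for bbs4 and 0.12 (SE 0.23) for bbs5. The BBSome subunits bbs1, bbs7 and bbs9 were higher in testis by 1.79, 2.62 and 1.89. A subunit called here and another that was not are not thereby shown to differ from each other. In the limma fit on rescaled TPM only bbs5 had an adjusted p over 0.05 among the 8. This depended on the fit, since bbs4 had 0.17 with edgeR (adjusted p = 0.69). With TPM as deposited ttc8 had 0.59 (limma adjusted p = 0.052).

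**Figure D4:**
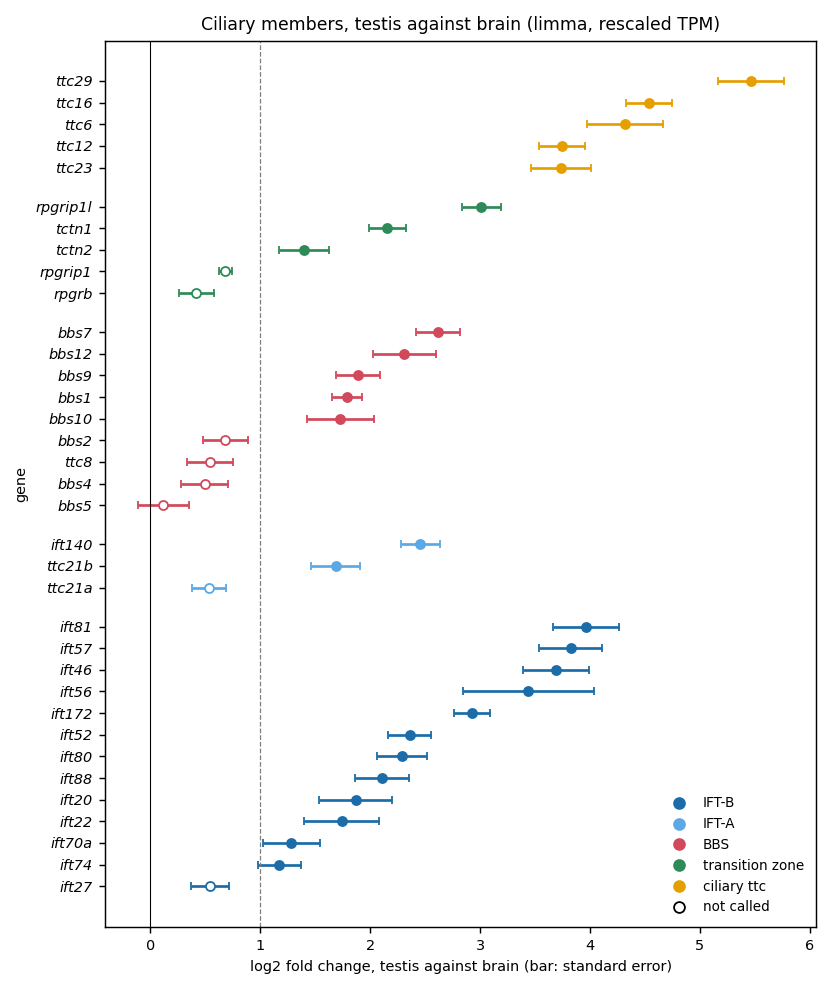
Log2 fold change of the 35 tested ciliary members in testis against brain, with limma SE as bars, sorted within class. Filled points were called higher in testis, open points were not called, and the dashed line marks 1. The ciliary ttc genes lie between 3.74 and 5.46, while bbs2, bbs4, bbs5 and ttc8 lie under 1.

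In spleen 5 of the 60 tested members were higher than in the 7 other tissues without testis, close to the 7.99% of all genes called higher. They were 4 IFT-B genes and rpgrip1l. The tubulin-binding subunit gene ift74 had 37.0, 19.6 and 28.5 TPM in spleen, against 1.77 to 11.9 TPM in heart, intestine, liver, muscle, skin and tail. Spleen stood above these tissues and overlapped brain. Its log2 fold change in this contrast was 1.42 (SE 0.15, limma adjusted p = 3.9e-08). The others were ift22 with 1.42, ift172 with 1.28, rpgrip1l with 1.26 and ift52 with 1.02. The 4 members called lower in spleen were ttc36, ttc22, ttc19 and ttc39a, where 16.4% of all genes were. The calls of ttc36 and ttc22 were lost with edgeR. That of ttc19 was lost in 3 of 37 alternatives and that of ttc39a in 10 of 37. Both were lost with TPM as deposited, after quantile normalization and without spleen replicate 2. For ift52 the call was lost in 4 of the fits that left out a library, with brain replicate 1, spleen replicate 1, spleen replicate 2 or tail replicate 1 left out, and the lowest value over the alternatives was 0.89. The B cell gene cd79a had 6.93 to 11.8 TPM in spleen.

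Liver and intestine had the lowest levels of most ciliary members. Of the 36, 33 had their lowest tissue mean of deposited TPM in either of them, as did 63% of all genes. After rescaling, the median log2 fold change of the 35 tested ciliary members was -0.64 in intestine and -0.46 in liver, where those of all genes were -0.15 and -0.24. In intestine ift57, ift172, ift80 and ift22 were lower than in the 7 other tissues without testis, by log2 fold changes of -1.61, -1.29, -1.26 and -1.16. These were 4 of 35 tested ciliary members, where 13.5% of all genes were lower. In liver ift57 and ift22 were lower, by -1.66 and -1.44, which was 2 of 35, where 17.2% of all genes were. In the limma fit on rescaled TPM the ciliary members were thus called lower no more often than all genes, but other fits differed. With edgeR and with TPM as deposited, a larger share of the ciliary members than of all genes was lower in both tissues. In intestine edgeR also called ift88, ift140 and bbs7 (-1.82, -1.95 and -1.60). It further called ift56, ift70a, ift81, ttc21b, bbs2, bbs4, rpgrb, rpgrip1l and ttc23 there. In liver edgeR also called bbs2, bbs4 and rpgrb (-1.32, -2.20 and -2.06), and ift172, ift56, ift80, ift140 and bbs1. The edgeR shares of all genes called lower were 16.4% in intestine and 21.3% in liver. With TPM as deposited they were 22% and 45.3%. Liver libraries were rescaled most, with factors of 0.221 to 0.433, so TPM as deposited puts liver lower still.

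The 25 other ttc genes did not share the testis pattern. Of these, 5 were higher in testis (ttc5, ttc34, ttc9c, ttc41 and ttc32), where 22.4% of all genes were. Another 3 were lower (ttc36, ttc22 and ttc38), where 16.4% of all genes were, and 17 were not called. Both shares were near those of all genes. Among the 5, ttc34 and ttc41 passed the filter only through testis. The calls of ttc36 and ttc22 were lost with edgeR. The call of ttc38 needed the rescaling, since with TPM as deposited its log2 fold change was -0.03 (limma adjusted p = 0.93). The median log2 fold change of the 25 genes was 0.18. The gene ttc5, whose product takes part in the autoregulation of tubulin mRNA, had 50.6, 47.0 and 45.4 TPM in testis and 16.9, 19.2 and 17.0 TPM in brain. The gene ttc9c had 54.3, 45.1 and 45.2 TPM in testis and at most 9.16 TPM in any other library. The gene ttc34 had 9.34, 7.2 and 9.42 TPM in testis and at most 1.08 TPM elsewhere. Similarity of pattern over the 9 tissue means had a median Spearman rho of 0.88 over the 78 pairs of IFT-B genes, 0.78 over the 36 pairs of BBS genes and 0.52 over the 300 pairs of other ttc genes. These pairs share the same 27 libraries.

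Several genes of this group had a clear peak in another tissue. The gene ttc36, whose product supports tyrosine breakdown in mouse liver, had 304, 338 and 324 TPM in liver, and its log2 fold change there was 7.82 (SE 0.33, limma adjusted p = 8.5e-15). Intestine had 78.9, 34.0 and 13.7 TPM of ttc36 and tail 17.0, 31 and 26 TPM, while all 3 brain libraries listed it at 0. Intestine also held the liver gene fabp10a, and the part of this in the intestine levels of ttc36, ttc38 and ttc7a was not tested. The gene ttc38 had 38.5, 54.0 and 36.4 TPM in intestine and at most 16.9 TPM elsewhere, with a log2 fold change of 3.34 (SE 0.28, limma adjusted p = 8.7e-10).

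The paralogs ttc7a and ttc7b, which encode alternative subunits of a phosphatidylinositol 4-kinase complex, had opposite patterns. Intestine had 12.5, 16.9 and 15.0 TPM of ttc7a and liver 5.77, 12.1 and 9.33 TPM, while brain had 1.31, 1.80 and 2.18 TPM. Brain had 40.2, 46.9 and 42.6 TPM of ttc7b, while intestine had 1.97, 2.38 and 2.05 TPM and liver 0.764, 1.62 and 1.48 TPM. In the limma fit ttc7a was higher in intestine by 3.0 (log2, SE 0.15, adjusted p = 1.6e-13) and in liver by 3.17 (SE 0.15, adjusted p = 7.1e-14), and ttc7b was higher in brain by 1.39 (SE 0.14, adjusted p = 1.1e-08).

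Brain had the highest levels of ttc9, ttc9b and ttc39c. Its libraries had 83.5, 76.5 and 89.4 TPM of ttc9, where testis had 6.61, 6.35 and 9.33 TPM and no other library passed 2.92 TPM. Those of ttc9b had 34.5, 32.9 and 42.6 TPM, where testis had 2.20, 2.33 and 2.61 TPM and no other library passed 0.463 TPM. The brain log2 fold changes were 4.29 (SE 0.19, limma adjusted p = 2.7e-15) for ttc9 and 3.99 (SE 0.11, limma adjusted p = 4e-19) for ttc9b. Their paralog ttc9c was highest in testis. In brain it was not called after rescaling (-0.16) but was called higher with TPM as deposited (1.07, limma adjusted p = 9e-06). For ttc39c brain had 59.0, 59.4 and 48.6 TPM against at most 13.4 TPM in any other library, a log2 fold change of 2.45.

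The gene ttc19, needed for mitochondrial respiratory complex III, had 39.6, 43.5 and 36.4 TPM in brain, 34.9, 21.4 and 31.9 TPM in heart and at most 17.6 TPM elsewhere. It was higher in heart by a log2 fold change of 2.02 (SE 0.24, limma adjusted p = 4.1e-07) and in brain by 1.24. In TPM as deposited, brain stood above heart without overlap, and both stood above all other tissues. After rescaling the order of brain and heart turned, as the log2 fold changes show.

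Tail had the highest level of ttc22, with 31.4, 37.0 and 34.1 TPM, and of ttc39a, with 6.01, 9.5 and 8.61 TPM. The log2 fold changes in tail were 4.10 (SE 0.20, limma adjusted p = 1.3e-13) for ttc22 and 1.70 (SE 0.21, limma adjusted p = 6.1e-07) for ttc39a. Muscle had 8.14, 3.70 and 14.0 TPM of ttc22 and skin 2.07, 3.75 and 1.63 TPM, and all other libraries were at or below 0.463 TPM. The keratin gene krt5 ran in the same order of tissues, with 33409 to 38747 TPM in tail. The other skin markers listed, krt4 and cyt1, were also highest in tail but did not keep this order. The mean of krt4 was 1197 TPM in intestine, above 1045 TPM in muscle and 536 TPM in skin. For cyt1 the means of spleen (1.87 TPM) and skin (1.77 TPM) were above that of muscle (1.42 TPM). The part of epidermis in the muscle value of ttc22 was not tested. The call of ttc22 as lower in testis was lost when the libraries of skin and muscle were left out, as was that in brain. The related gene ttc39b had 32.3, 27.7 and 36.8 TPM in tail, 25.4, 28.7 and 28.0 TPM in brain and 23.5, 25.5 and 36.1 TPM in testis, which overlapped one another.

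**Figure D5:**
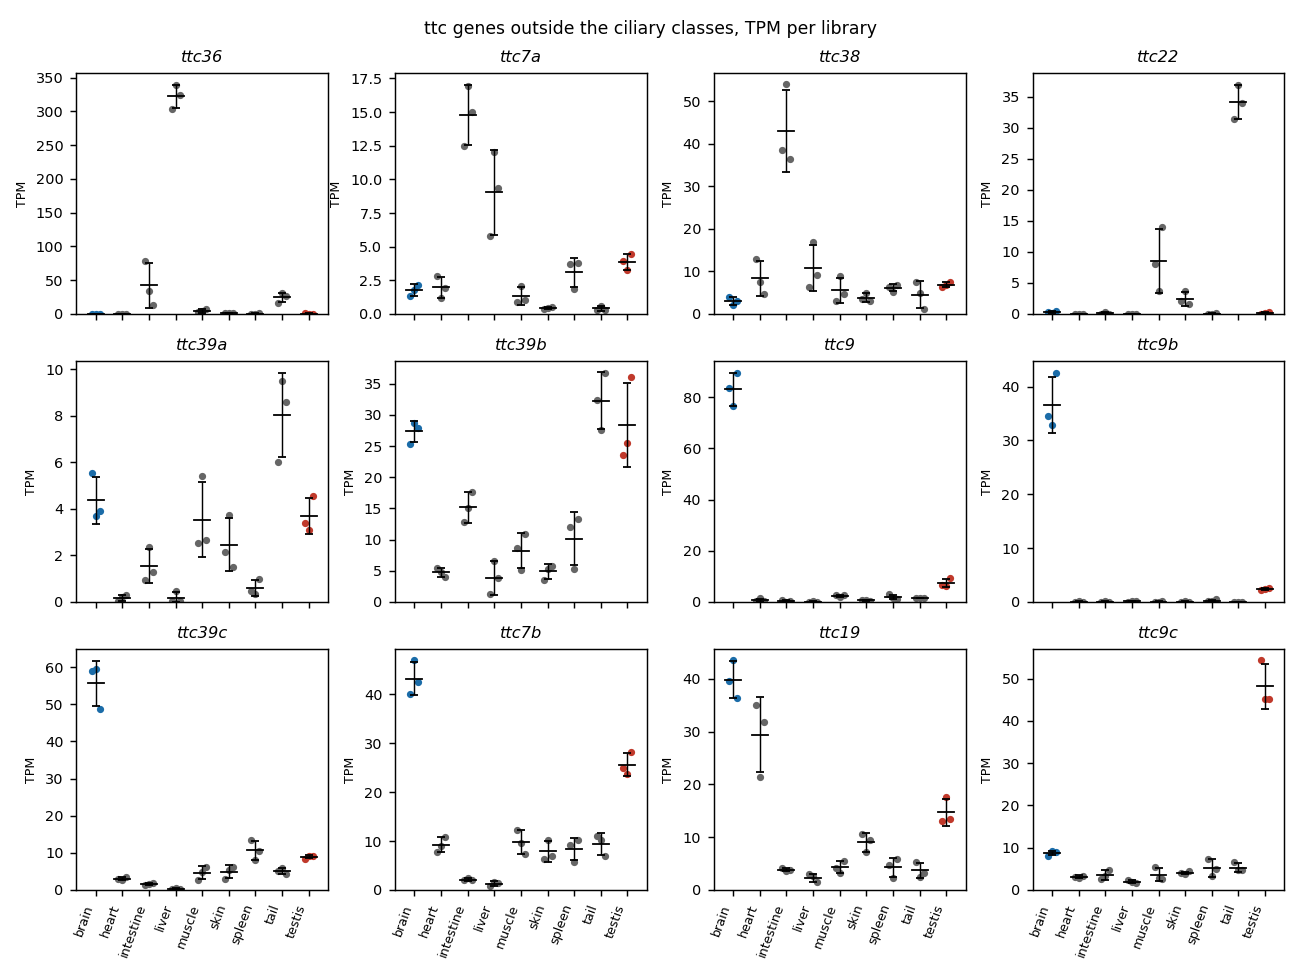
TPM of 12 ttc genes outside the ciliary classes in each library, with testis in red, brain in blue and the other tissues in grey. Black lines are means, bars are SD (n = 3, lower ends stopped at 0) and each panel has its own linear axis. Peaks lie in liver for ttc36, intestine for ttc7a and ttc38, tail for ttc22 and ttc39a, brain for ttc9, ttc9b, ttc39c, ttc7b and ttc19, and testis for ttc9c.

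The 11 other ttc genes not described one by one were ttc1, ttc3, ttc4, ttc13, ttc14, ttc17, ttc27, ttc28, ttc32, ttc33 and ttc41. Their log2 fold changes in testis ran from -0.49 for ttc14 to 1.75 for ttc41, and ttc41 and ttc32 were called.

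Genes of the same machinery under other symbols were listed by role. Of the 58 symbols listed, 44 were found, and the 46 genes tested include symbols with several identifiers. In testis limma called 41 higher, where 22.4% of all genes were, with a median of 2.85 on the log2 scale, and did not call rab8a, invs, rfx4 and both genes listed as kif3c. In brain 21 were higher and 1 was lower, where 21.1% and 17.7% of all genes were. Among the symbols found, all 5 IFT subunits with other symbols, all 5 listed genes of the IFT dynein and all 4 BBS genes with other symbols rose in testis. The kinesin genes split, since kif17 had 57.9 ± 5.7 TPM (SD, n = 3) in testis and 0.709 ± 0.106 in brain, whereas the genes listed as kif3c had 0.592 ± 0.064 and 0.908 ± 0.117 TPM in testis and 35.9 ± 5.1 and 59.1 ± 3.9 TPM in brain. The shared motor subunit gene kif3a had 57.1 ± 7.0 TPM in testis and 61.7 ± 7.3 in brain, a log2 difference of -0.14 (SE 0.24, limma adjusted p = 0.64). The transcription factor gene rfx3, which drives ciliary genes, had 155 ± 13 TPM in testis and 19.6 ± 1.2 in brain, whereas rfx4 had 1.92 ± 0.59 and 6.74 ± 0.24 TPM and was lower in testis than in brain by -1.15 (SE 0.13, limma adjusted p = 7.2e-08).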

How the data were processed

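Poly(A) RNA from 9 zebrafish tissues with 3 libraries each was analysed from the values deposited per library. For 32524 Ensembl genes the authors deposited TPM beside an estimated count. The estimated counts are not normalized, and the TPM values are scaled for effective length and sum to the same total in every library. Each gene's deposited values are sums over its transcripts. The submitters' processing notes list kallisto 0.43.0, HISAT2 2.1.0, SAMtools 1.9, cutadapt 1.18 and the build GRCz11, with no roles. The annotation release is not given in the sources used here.

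Libraries were grouped by the tissue in the labels. Symbols were matched by Ensembl identifier (29201 identifiers have one). Of the 61 members, 59 were found by symbol in the RefSeq table of assembly GRCz12tu and 1 by a synonym. RefSeq symbols ift43, ift122 and ttc24 have no identifier linked to them and were not analysed here. No sequence or promoter table was used here. The members, lists and the scaling were chosen with earlier results of these data known, and the contrast of testis with brain was added after the values were seen.

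TPM values were rescaled by median-of-ratios factors, transformed as log2(TPM + 1), and kept for genes that reached 1 TPM in 3 or more libraries (25245 genes). The model was fitted in limma 3.58.1 (R 4.3.3) with tissue means as coefficients, and eBayes used a trend. The genes named were all ciliary members, the 3 highest and 3 lowest called other ttc genes in testis, the 2 highest called in each other tissue, and lettered copies. Others were named to account for each member. Alternatives were TPM as deposited, quantile normalization, a pseudocount of 0.1, no filter, eBayes without a trend, a replicate block, edgeR 4.0.16 and DESeq2 1.42.0 on estimated counts rounded to whole numbers, and each library left out in turn. Leaving out muscle replicates 2 and 3 together, and all skin and muscle libraries, was chosen after seeing the data. The fits were tested beforehand on simulated data. These gave every library the same gene proportions apart from a set of genes changed in testis, so they could not check the rescaling. Figures were drawn with matplotlib 3.10.9 in Python 3.11.15.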

Additional observations from a re-analysis of the deposited data

How the results depend on the processing

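The 38 members higher in testis and the 31 higher there than in brain were called under every other scaling, filter and test. Members higher in brain numbered 23 in the limma fit, 49 with TPM as deposited, 15 after quantile normalization and 36 with DESeq2, beside 21.1%, 48.2%, 18.3% and 27.3% of all genes. Members lower in testis numbered 3, and 1 with edgeR, where ttc36 and ttc22 had adjusted p of 1 and 0.99 and where 20.8% of all genes were lower. With TPM as deposited the testis call of ttc38 was lost (-0.03, adjusted p = 0.93) and so was the brain call of ttc7a as lower (-0.40, adjusted p = 0.066). The causes were not tested. Of all genes called in testis, 57.8% were higher in the main scaling, 90% with TPM as deposited, where the median of all genes moved to 0.89, and 45% after quantile normalization. In brain these shares were 54.4%, 85.2% and 45.6%. Leaving out each library in turn gave 38 to 38 members higher and 3 to 3 lower in testis, 22 to 24 higher and 4 to 4 lower in brain, and 31 to 31 higher and 4 to 5 lower in testis than in brain. Without brain replicate 2 the brain call of ift57 was lost, and without brain replicate 3 that of bbs10. With the replicate number as a block, the counts were 38 and 3 in testis, 23 and 4 in brain and 31 and 4 between them, with the same members. The main fit did not pair libraries by number, although their deviations from the tissue means went with the number. All 27 of 27 libraries correlated best with their own number. The correlation of deviations had a mean of 0.107 over 108 same-numbered pairs and passed 0.1 in 54 of them. What the libraries of 1 number share was not tested. Over 147 called values of named members and 5434 alternative values, 72 lost the call and 0 changed sign. Members with few counts, such as ttc16, rpgrip1 and ttc34 outside testis, are limited by depth.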
